A study of Mus musculus with 8 samples.

Results

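The genes described here supply amino acids to the cell and load them onto tRNAs. They were chosen by symbol: every row of the expression table named as a cytosolic aminoacyl-tRNA synthetase (a single-letter amino acid code followed by ars, or Eprs, as read by the rule), together with 22 named enzymes and transporters. All 40 genes were found among the 18671 genes of the table, and none was lost to a filter. They comprised 18 synthetases, 6 enzymes of serine, glycine and folate metabolism, 7 enzymes of asparagine, proline, transsulfuration and transamination, and 9 transporters.

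The cells were BMEL cells, a line of bipotential mouse embryonic liver cells, grown on collagen in RPMI with serum, IGFII, EGF and insulin. RNA-seq was performed on 8 samples harvested 48 h after transfection. The 4 GRHL2 samples received a plasmid in which an EF1A promoter drives flag-tagged human GRHL2 and which, being bicistronic, also expresses EGFP, and the 4 pcDNA3 samples received the control vector without GFP, so effects of GRHL2 and of GFP cannot be told apart. GRHL2 is a grainyhead-like transcription factor of epithelial cells. Replicates are numbered 1 to 4 in each group. The study describes them as independent biological replicates.

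Aminoacyl-tRNA synthetases join amino acids to the tRNAs that carry them to the ribosome, as a rule with a separate enzyme for each amino acid, and several of the cytosolic enzymes sit together in the multisynthetase complex. When amino acids are short or the endoplasmic reticulum is under stress, phosphorylation of the initiation factor eIF2 favours translation of ATF4, a transcription factor that pairs with C/EBP proteins. Many genes of amino acid import, of asparagine and serine synthesis and of tRNA charging are known ATF4 targets through a composite C/EBP-ATF response element.

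Values are on a log2 scale and per transcript length: they are regularized logarithms (rlog) of read counts less the log2 of transcript length, so levels can be set side by side between genes. A difference is the GRHL2 mean minus the pcDNA3 mean in log2 units, and rlog understates it for genes with few reads. A gene was called when its Benjamini-Hochberg adjusted p in limma, taken over all 18671 genes, was under 0.05. The read depth of the samples is unknown.

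The Grhl2 row (chr15:37233036-37363569, GRCm38) checked the labels. It read 6.30, 6.96, 5.65 and 6.05 in GRHL2 replicates 1 to 4 and 4.68, 4.57, 4.42 and 4.44 in pcDNA3 replicates 1 to 4. Every GRHL2 sample was above every control, with a difference of 1.71 (SE 0.22, limma adjusted p = 0.00100). The plasmid carries the human cDNA while the table lists the mouse symbol, so this value does not separate plasmid from endogenous RNA.

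Most of the 40 genes were lower with GRHL2, and most differences were small. In limma, 13 genes fell (32.5%) and 3 rose (7.5%), against 5.91% and 10.5% of all genes, and 24 were not called. The 13 were 9 synthetases (Aars, Cars, Eprs, Gars, Iars, Lars, Nars, Tars and Yars), Mthfd2, Asns, Slc7a11 and Slc3a2. The 3 that rose were Qars, Cbs and Slc1a5. The median difference over the 40 genes was -0.13, with a range of -0.75 to 0.25, and the median over all genes was 0.007. Of the 40 differences, 32 were below 0. For 24 of the 40 genes (60.0%) the GRHL2 sample was lower in each of the 4 same-numbered pairs, against 21.3% of all genes.

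**Figure D1:**
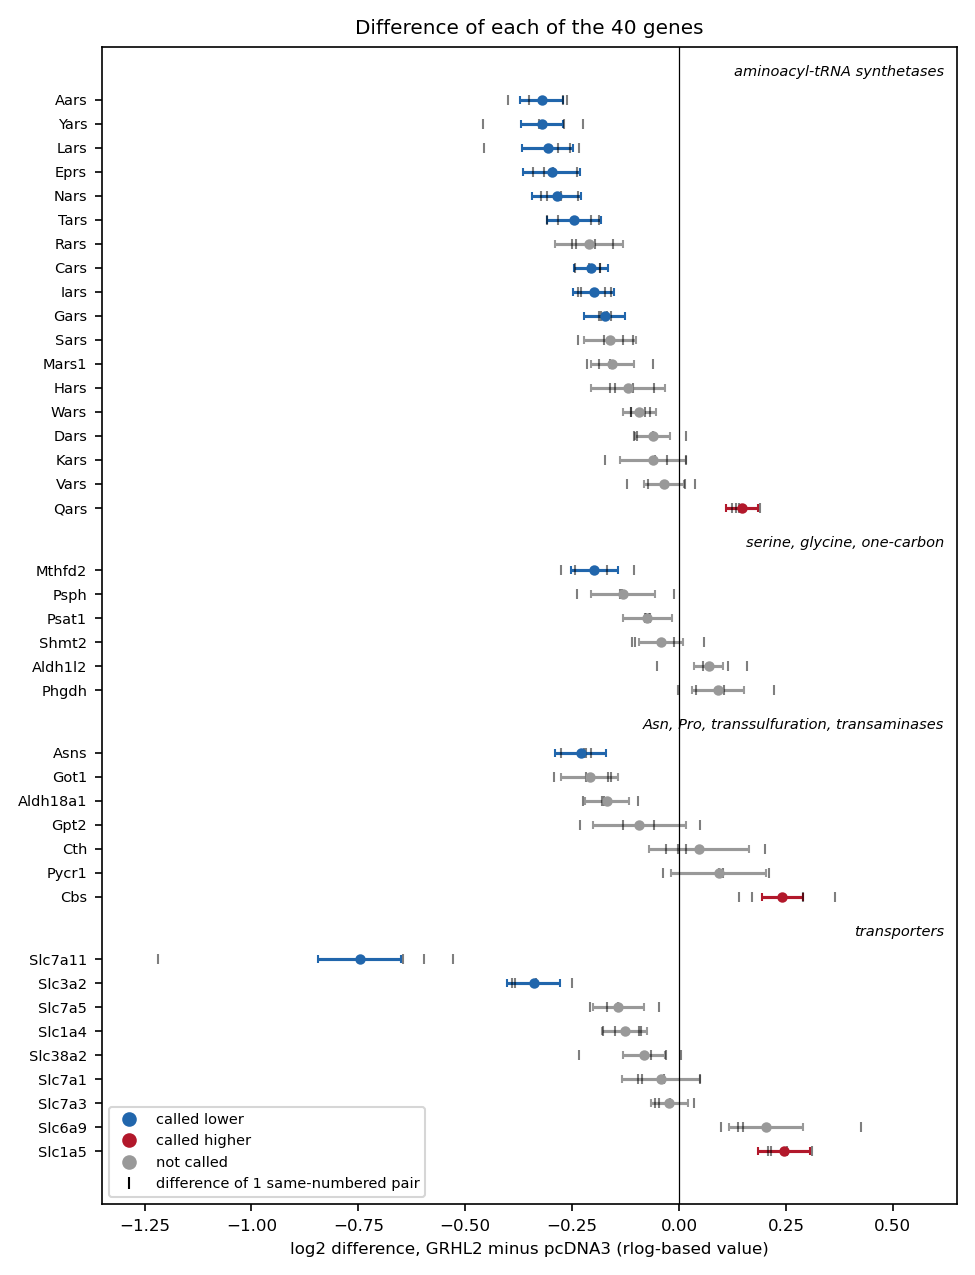
Difference of each of the 40 genes on the log2 scale (GRHL2 mean minus pcDNA3 mean), grouped by role. Points are differences with limma standard errors as bars, ticks are the 4 same-numbered pairs, and colours give the call; 13 genes fell, 3 rose, and Slc7a11 at -0.75 lies farthest from 0.

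The samples of both groups stood apart for 16 of the 40 genes on the lower side and for 3 on the higher side, against 9.47% and 14.3% of all genes. The other 21 overlapped. With each gene centred on its own mean, the median over the 40 genes was -0.039, -0.064, -0.051 and -0.116 in GRHL2 replicates 1 to 4 and 0.070, 0.088, 0.075 and 0.030 in pcDNA3 replicates 1 to 4. Every GRHL2 sample thus lay below every control in this summary.

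Same-numbered samples moved together around their group means, and so did replicates 1 with 2 and replicates 3 with 4 across groups. With the number as a block, 23 of the 40 genes fell (57.5%) and 4 rose (10.0%), against 13.9% and 18.2% of all genes. All 16 calls held with the block. The 10 further genes that fell were Hars, Mars1, Rars, Sars, Psat1, Psph, Aldh18a1, Got1, Slc7a5 and Slc1a4, and Slc6a9 rose.

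The genes are highly expressed: their median level was 10.85, at percentile 93.6 of the table. Highly expressed genes fell more often than they rose in these samples. Among the 4363 genes with a mean value of at least 9, a limit chosen after seeing the data, 8.94% fell and 3.67% rose, and with the block 25.8% and 12.5%. Of the 40 genes, 32 were above this limit; 12 of these fell (37.5%) and 2 rose (6.25%). Of these 32, 22 (68.8%) were lower in all 4 pairs, against 36.6% of the 4363. The groups stood apart on the lower side for 15 of the 32, against 656 of the 4363. The direction of calls over all genes also moved with scaling, since 63.9% of calls were higher as deposited, 47.1% with equal sample medians and 75.9% with equal upper quartiles. With equal medians 14 of the 40 genes fell and 2 rose, against 6.73% and 5.99% of all genes. With equal upper quartiles 12 fell and 3 rose, against 5.21% and 16.4%.

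Single libraries moved the count, and the share of all genes called moved too. Without GRHL2 replicate 4, 8 of the 40 genes fell and 1 rose, against 3.85% and 9.44% of all genes. Without pcDNA3 replicate 1, 8 fell and 1 rose, against 3.70% and 7.10%. Without GRHL2 replicate 3, 9 fell and 1 rose, against 3.70% and 9.13%. Replicates 1 and 2 alone gave 7 that fell and none that rose (6 were higher at an unadjusted limma p under 0.05), against 1.82% and 5.47% of all genes. Replicates 3 and 4 alone gave 19 that fell and 3 that rose, against 8.93% and 11.0%. Of the 40 genes, 31 (77.5%) were below 0 both within replicates 1 and 2 and within replicates 3 and 4, against 33.7% of all genes. Among genes with a mean value of at least 9 this held for 28 of the 32 (87.5%), against 48.7% of the 4363.

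The letters of the C/EBP-ATF response element, TGATGNAA on either strand, were searched in RefSeq promoter windows of GRCm38.p6, each running from 250 bases before the transcription start to 50 after it. Windows were found for 28 of the 40 genes; Cars, Hars, Lars, Nars, Rars, Vars, Wars, Aldh1l2, Cth, Slc7a3, Slc7a5 and Slc1a5 are not among them. The element was present in 10 of the 28 (35.7%), against 4.51% of the 27025 genes with a window. These were Aars, Gars, Iars, Tars, Yars, Asns, Slc7a11, Pycr1, Got1 and Slc1a4. Stretches of 30 bases around the matches follow, because the genes they belong to hold 7 of the 13 that fell. They are written 5′ to 3′ on the strand of the gene, with the element in capitals, and TTNCATCA is the same element on the opposite strand.
Slc7a11, chr3:50443652-50443681, minus strand: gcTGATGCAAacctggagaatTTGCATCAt
Yars, chr4:129189895-129189924, plus strand: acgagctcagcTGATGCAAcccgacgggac
Asns, chr6:7693214-7693243, minus strand: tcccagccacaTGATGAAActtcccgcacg
Gars, chr6:55037960-55037989, plus strand: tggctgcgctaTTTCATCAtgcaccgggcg
Aars, chr8:111033840-111033869, plus strand: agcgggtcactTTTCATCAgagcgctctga
Iars, chr13:49682126-49682155, plus strand: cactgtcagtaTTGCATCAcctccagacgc
Tars, chr15:11399655-11399684, minus strand: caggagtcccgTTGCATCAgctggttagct
Got1, chr19:43524689-43524718, minus strand: cattgcattggTTGCATCAtacaagcctcc
Pycr1, chr11:120643833-120643862, minus strand: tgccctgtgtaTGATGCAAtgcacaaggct
Slc1a4, chr11:20332699-20332728, minus strand: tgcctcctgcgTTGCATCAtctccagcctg

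Slc7a11 carried the element on both strands within 1 stretch, with first bases at -66 and -47 from the start, and in Aars the element shown lay after the start, at 10. In Asns the first base was at -23, in Gars at -30 and in Tars at -15, while in Yars and Iars the element lay after the start, at 4 and 8. Such offsets count from the start of the RefSeq window, which can differ from the gene positions printed below. The stretches of Asns and Aars lie inside those gene positions. Among the 10 genes with the element, 7 fell and Pycr1, Got1 and Slc1a4 were not called, with a median difference of -0.22. Among the 18 genes whose window lacked it, 3 fell, 2 rose and 13 were not called, with a median of -0.08. Of all genes of the table, 5.91% fell and 10.5% rose. The 12 genes without a window had a median of -0.11. A match shows only that these letters are present, and no binding was measured.

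Other genes with the element were counted in the same way. Of the 353 other genes of the table that carried it, 7.08% fell, against 6.76% of the 12520 genes with a window and no element. Another 3 motifs were searched on both strands of the same windows, and their matches were not checked for overlap with the first. The ATF/CREB element TGACGTCA was in 0 of the 28 (2.03% of all genes with a window). Of the genes of the table with it 11.0% fell, against 6.68% of those without it. The E-box CACGTG was in 5 (17.9%, against 8.09%), namely Aars, Iars, Tars, Aldh18a1 and Cbs. Of these 5 genes, 3 fell and 1 rose, with a median of -0.20. Of the other genes of the table with the E-box 10.4% fell, against 6.36% of those without it. The grainyhead letters AACCNGTT were in 1, Psph (against 2.35%), which was not called.

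**Figure D2:**
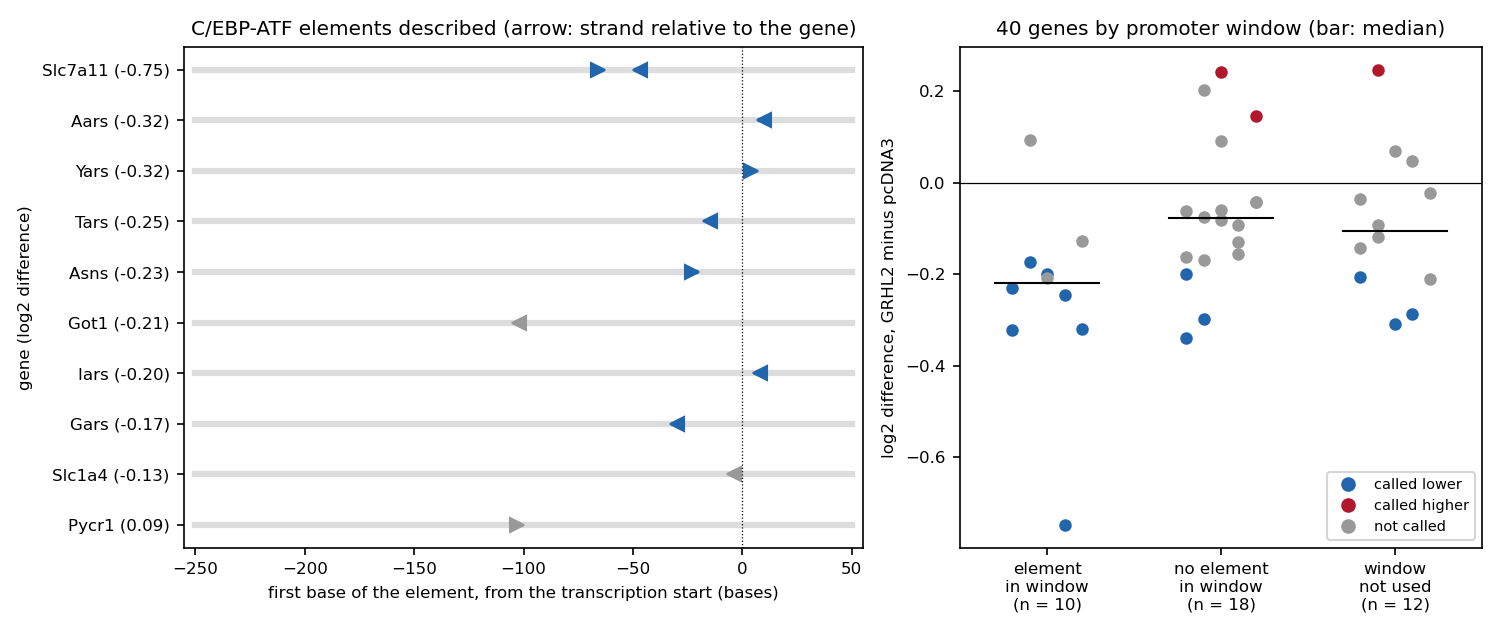
Left, position of the C/EBP-ATF elements printed in the text, relative to the transcription start in the 10 genes that carry it, ordered by log2 difference. Right, log2 difference of all 40 genes by promoter window, with bars at the medians of -0.22, -0.08 and -0.11; 7 of the 10 genes with the element fell.

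Among the synthetases, 9 of 18 fell, 1 rose and 8 were not called, against 5.91% and 10.5% of all genes that fell and rose. With the block 13 fell and 1 rose, against 13.9% and 18.2%. The fallen ones differed by -0.32 to -0.17. Of the 18 differences 17 were below 0, with a median of -0.19, and 14 synthetases were lower in all 4 pairs, against 21.3% of all genes. Their levels lay in a narrow band from 10.15 to 12.28.

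Aars, the alanyl-tRNA synthetase (chr8:111033144-111057664), fell. It read 11.75, 11.76, 11.73 and 11.64 in GRHL2 replicates 1 to 4 and 12.01, 12.16, 12.00 and 11.99 in the controls. The groups did not overlap, and control replicate 2 was the highest sample. The difference was -0.32 (SE 0.050, limma adjusted p = 0.00249).

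Yars, the tyrosyl-tRNA synthetase (chr4:129189760-129219607), read 9.98, 9.92, 10.06 and 10.01 with GRHL2 and 10.31, 10.38, 10.33 and 10.23 in the controls. The groups stood apart, and the difference was -0.32 (SE 0.049, limma adjusted p = 0.00236). Lars, the leucyl-tRNA synthetase of the multisynthetase complex, read 11.20, 11.13, 11.15 and 11.05 against 11.44, 11.58, 11.40 and 11.33. Again no GRHL2 sample reached the lowest control, and the difference was -0.31 (SE 0.059, limma adjusted p = 0.00730).

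Qars, the glutaminyl-tRNA synthetase (chr9:108507706-108515941), moved the other way. It read 11.86, 11.90, 11.90 and 11.91 with GRHL2 and 11.72, 11.71, 11.78 and 11.77 in the controls. All 4 GRHL2 samples were above all 4 controls, by a difference of 0.15 (SE 0.037, limma adjusted p = 0.0250). With equal sample medians it was no longer called (limma adjusted p = 0.0859), and it was also lost when any of GRHL2 replicates 2, 3 and 4 or pcDNA3 replicate 1 was left out, with limma adjusted p up to 0.0722.

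The other 6 that fell were Eprs (-0.30), which charges both glutamate and proline, Nars (-0.29, asparagine), Tars (-0.25, threonine), Cars (-0.21, cysteine), Iars (-0.20, isoleucine) and Gars (-0.17, glycine). Their groups stood apart. Calls of Gars and Tars were lost in 5 of the 8 fits that left out 1 sample and that of Iars in 3, with limma adjusted p up to 0.0953. Among those not called, Rars (-0.21), Sars (-0.16), Mars1 (-0.16) and Hars (-0.12) were lower in all 4 pairs and were called with the block. Wars differed by -0.09 with groups that did not overlap. Dars (-0.06), Kars (-0.06) and Vars (-0.04) overlapped and were not called with the block either.

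Of the 8 synthetases that belong to the multisynthetase complex (Dars, Eprs, Iars, Kars, Lars, Mars1, Qars and Rars), 3 fell and 1 rose. Of the 10 outside it, 6 fell and all 10 were below 0. Of all genes, 5.91% fell and 10.5% rose. This division was chosen after the values were seen, and the difference between both subsets was not tested.

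The charging enzymes outside the rule gave context. Of the 5 genes for the cytosolic phenylalanine synthetase and the scaffold proteins of the complex, Farsb, the beta chain of the phenylalanine enzyme, fell (-0.27, limma adjusted p = 0.00618) and all 5 were below 0. With the block 3 of the 5 fell, the others being the scaffold genes Aimp1 and Eef1e1. Of all genes, 5.91% fell and 10.5% rose, and with the block 13.9% and 18.2%. Of the 17 mitochondrial synthetases, limma called 0, also with the block, and 0 had an unadjusted p under 0.05. Their median difference was -0.02 and the groups overlapped for all 17. Over all genes, the groups stood apart for 9.47% on the lower and 14.3% on the higher side. The difference between cytosolic and mitochondrial enzymes was not tested, and the mitochondrial ones were lower expressed, at 5.20 to 11.08.

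**Figure D3:**
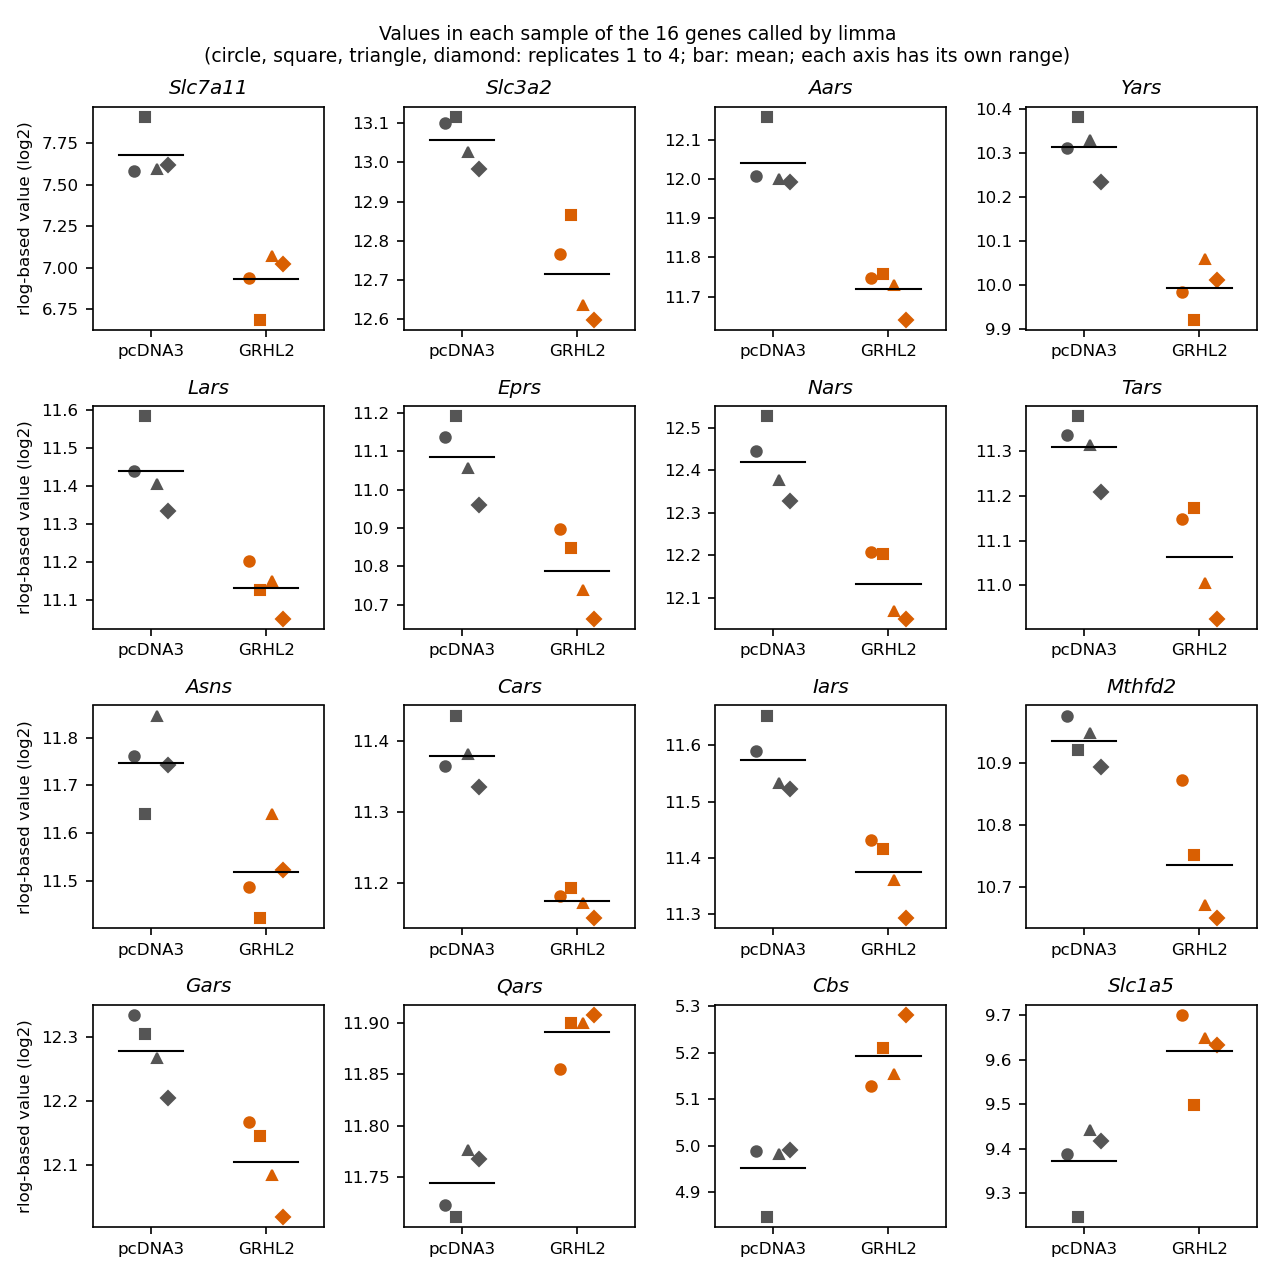
Values in each sample for the 16 genes called by limma, on the log2 scale, with a separate axis range per gene. Symbols mark replicates 1 to 4 and bars mark group means; the GRHL2 samples lie apart from the controls in 15 panels and touch them in Asns.

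In the serine, glycine and folate group, 1 of 6 enzymes fell (16.7%), and 3 with the block (50.0%), against 5.91% and 13.9% of all genes. In this group 0 rose in either fit, against 10.5% and 18.2% of all genes. Mthfd2, the mitochondrial methylenetetrahydrofolate dehydrogenase (chr6:83305691-83325908), read 10.87, 10.75, 10.67 and 10.65 with GRHL2 and 10.98, 10.92, 10.95 and 10.89 in the controls. The groups stood apart by a narrow margin between GRHL2 replicate 1 and control replicate 4. The difference was -0.20 (SE 0.055, limma adjusted p = 0.0354; 0.00446 with the block). The call was lost in 7 of the 8 fits that left out 1 sample, with limma adjusted p up to 0.0984. It was also lost with equal upper quartiles and with replicates 1 and 2 alone.

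The serine pathway enzymes themselves were not called. Phgdh, which commits 3-phosphoglycerate to serine synthesis, had the highest level of the 40 genes at 13.26 and differed by 0.09. Psat1 (-0.07) and Psph (-0.13), the next enzymes of the path, were lower in all 4 pairs and were called with the block (limma adjusted p = 0.0491 and 0.0467). Psat1 was not called when GC content was corrected together with the block (limma adjusted p = 0.0678). Shmt2, the mitochondrial serine hydroxymethyltransferase, differed by -0.04, and Aldh1l2, a mitochondrial folate dehydrogenase with the lowest level of the 40 (2.67), by 0.07.

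Of the 7 enzymes of the next group, 1 fell and 1 rose (14.3% each), against 5.91% and 10.5% of all genes. With the block 3 fell (42.9%) and 1 rose (14.3%), against 13.9% and 18.2% of all genes. Asns, the asparagine synthetase (chr6:7675169-7693254), read 11.49, 11.42, 11.64 and 11.52 with GRHL2 and 11.76, 11.64, 11.85 and 11.74 in the controls. GRHL2 replicate 3 reached the level of control replicate 2, so the groups overlapped, yet each GRHL2 sample was below the control of its own number. The difference was -0.23 (SE 0.060, limma adjusted p = 0.0271; 0.000649 with the block), and the exact two-sided permutation test over samples gave p = 0.0571. The call was lost in 6 of the 8 fits that left out 1 sample, with limma adjusted p up to 0.0722.

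Cbs, the cystathionine beta-synthase that opens transsulfuration (chr17:31608894-31637238), read 5.13, 5.21, 5.15 and 5.28 with GRHL2 and 4.99, 4.85, 4.98 and 4.99 in the controls. The groups stood apart, with control replicate 2 the lowest, and the difference was 0.24 (SE 0.048, limma adjusted p = 0.00901). Cth, the next enzyme of transsulfuration, differed by 0.05 with overlapping groups. The proline enzymes Aldh18a1 and Pycr1 differed by -0.17 and 0.09. Of the transaminases, Got1 differed by -0.21 and Gpt2 by -0.09. Aldh18a1 and Got1 had groups that stood apart and were called with the block (limma adjusted p = 0.00546 and 0.00230).

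Of the 9 transporters, 2 fell (22.2%) and 1 rose (11.1%), and the share that rose was close to the 10.5% of all genes. With the block 4 fell and 2 rose (22.2%), against 13.9% and 18.2% of all genes. Slc7a11, the light chain of the cystine/glutamate exchanger xCT (chr3:49892526-50443614), had the largest difference of the 40 genes. It read 6.94, 6.69, 7.07 and 7.02 with GRHL2 and 7.59, 7.91, 7.60 and 7.62 in the controls. GRHL2 replicate 2 was the lowest and control replicate 2 the highest sample, and the groups did not overlap. The difference was -0.75 (SE 0.097, limma adjusted p = 0.000992), so that the linear level decreased by 40.4%, and without 1 sample at a time it lay between -0.79 and -0.67. It was -0.93 within replicates 1 and 2 and -0.56 within replicates 3 and 4.

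Slc3a2, the heavy chain that carries xCT and the large neutral amino acid transporter to the membrane (chr19:8706882-8723369), read 12.76, 12.86, 12.64 and 12.60 with GRHL2 and 13.10, 13.12, 13.03 and 12.98 in the controls. It fell by 0.34 on the log2 scale (SE 0.062, limma adjusted p = 0.00548), with no overlap. Another of its partners, Slc7a5, the light chain of the large neutral amino acid transporter, differed by -0.14 and was called with the block only (limma adjusted p = 0.0174).

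Slc1a5, the neutral amino acid exchanger that imports glutamine (chr7:16781340-16798274), rose. It read 9.70, 9.50, 9.65 and 9.63 with GRHL2 and 9.39, 9.25, 9.44 and 9.42 in the controls. Replicate 2 was the lowest in both groups, and the groups stood apart. The difference was 0.25 (SE 0.061, limma adjusted p = 0.0224), and the call was lost in 4 of the 8 fits that left out 1 sample, with limma adjusted p up to 0.0643.

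The other transporters were not called without the block. Slc6a9, a glycine transporter, differed by 0.20 and Slc1a4, a neutral amino acid transporter, by -0.13, and both were called with the block (limma adjusted p = 0.0244 and 0.0298). Slc38a2 (-0.08), Slc7a1 (-0.04) and Slc7a3 (-0.02), which import small neutral and cationic amino acids, overlapped between groups.

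Other genes of amino acid metabolism were counted for comparison. Of 24 further amino acid enzymes, 3 fell (12.5%) and 1 rose (4.17%), with a median of 0.01, against 5.91% and 10.5% of all genes. With the block 6 fell (25.0%) and 3 rose (12.5%), against 13.9% and 18.2%. Dld (-0.28), a subunit of the glycine cleavage and keto acid dehydrogenase complexes, fell without the block. So did Glud1 (-0.16), the glutamate dehydrogenase, and Bcat1 (-0.16), a branched-chain transaminase, while Ass1 (0.30), the argininosuccinate synthase, rose. Of 22 further transporters, 3 fell (13.6%) and 5 rose (22.7%), with a median of 0.08, against 5.91% and 10.5% of all genes. With the block 4 fell (18.2%) and 9 rose (40.9%), against 13.9% and 18.2% of all genes. Without the block Slc43a2 (0.62, limma adjusted p = 0.00245) and Slc43a1 (0.21), carriers of large neutral amino acids, rose, as did Slc38a3 (0.34), Slc1a1 (0.24) and Slc7a8 (0.14). Levels of Slc43a1, Slc1a1 and Slc7a8 were low (2.26, 2.25 and 1.62), at percentiles 22.5, 22.5 and 17.0 of the table. Slc38a7 (-0.26), Slc36a1 (-0.25) and Slc25a22 (-0.21) fell. Beyond the 3 largest of each list, these were named after their values were seen.

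**Figure D4:**
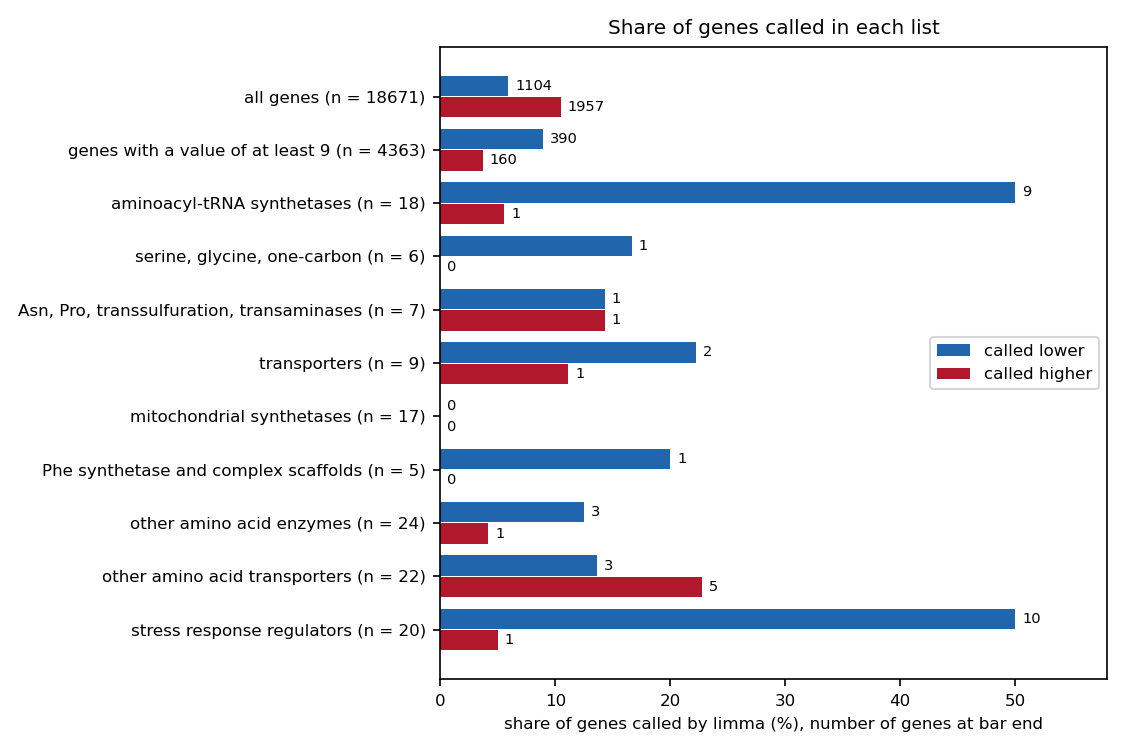
Share of genes called lower and higher by limma (%) in all genes, in genes with a mean value of at least 9, in the 4 roles and in 5 related lists, with the number of genes at each bar. The synthetases (9 of 18) and the stress response genes, labelled as regulators (10 of 20), have the largest shares called lower.

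Regulators and target genes of the integrated stress response, to which the ATF4 path belongs, were counted in the same samples. Of 20 such genes, 10 fell, 1 rose (Stc2, 0.41, at a level of 3.49) and 9 were not called. Of all genes, 5.91% fell and 10.5% rose. With the block 13 of the 20 fell and 1 rose, against 13.9% and 18.2% of all genes. Their median difference was -0.29. The largest were Ppp1r15a (-1.45, limma adjusted p = 0.000757), which directs dephosphorylation of eIF2, Ddit3 (-1.24, 2.9e-05), which encodes CHOP, and Trib3 (-0.72, 7.4e-05), a pseudokinase. Atf4 itself, named after its values were seen, fell by 0.34 on the log2 scale (limma adjusted p = 0.000636). The part of these genes in the differences of the 40 genes was not tested.

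The labelled cell type was checked against liver markers. Hnf4a (11.16) and Foxa2 (10.36) were high, Afp was at 8.22, and the hepatocyte products Alb, Ttr and Apoa1 were low (5.22, 4.95 and 3.89). Biliary keratins Krt19 (15.13) and Krt7 (13.01) were high. Of the 5 biliary markers, 2 rose with GRHL2 (Epcam by 1.75 and Krt7 by 0.44) and all 5 with the block. Of the 6 hepatoblast and hepatocyte markers 1 fell (Afp, -0.21), also with the block. Of all genes, 5.91% fell and 10.5% rose, and with the block 13.9% and 18.2%. Markers of other cell types lay below the median level of the table (6.45), with 4 endothelial ones at 1.24 to 3.29, 3 of blood cells at 0.89 to 6.17 (Cd68 the highest, at percentile 48.0) and 3 of fibroblasts at -0.18 to 5.28; 1 of these 10 was called (Pdgfrb, 0.11, at a level of -0.18). With the block, 5 of the 10 rose, against 18.2% of all genes, namely Kdr (0.13), Tek (0.09), Cd68 (0.16), Col1a1 (0.13) and Pdgfrb. In bulk samples, fewer cells of a type and less RNA per cell cannot be told apart, and the part of these markers in the result was not tested.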

How the data were processed

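RNA-seq values of 8 BMEL samples (4 GRHL2, 4 pcDNA3) were analysed, grouped by the sample labels. The deposited values are on a log2 scale: 7190 of 149368 are below 0, although the table is named for FPKM. Per the methods, the authors mapped reads with HISAT2, counted exonic reads with HTSeq (unstranded), dropped genes under 10 reads in total and divided DESeq2 rlog values by transcript length; this description opens with public data and was assumed to cover the BMEL samples. The submitters' processing notes name HISAT2 2.2.1, HTSeq 0.9.1, DESeq2 1.40.2, mm10 and GRCm39; for the aligner and the rlog package, the authors' methods give other versions. After adding back log2 transcript length, the 1st percentile of the values was 0.30 to 0.39 across 5 classes of transcript length. Overlapping and antisense genes cannot be separated in unstranded counts, and depth is unknown.

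All 18671 genes were fitted with limma 3.58.1 in R 4.3.3 (2 groups, mean-variance trend, Benjamini-Hochberg adjusted p under 0.05), after the script was tested on simulated data. Replicate numbers come from the labels; deviations of same-numbered samples correlated across genes with r of 0.474 to 0.645, those of replicates 1 with 2 and 3 with 4 with 0.344 to 0.602, and those of either of replicates 1 and 2 with either of 3 and 4 with -0.611 to -0.399. Alternatives were the replicate block, each sample left out, equal medians, equal upper quartiles, no trend, a mean value of at least 2, and replicates 1 and 2 or 3 and 4 alone; a GC content correction (lowess), without and with the block, was chosen after seeing the data. Exact permutation tests over samples cannot go below p = 0.0286 with 4 against 4.

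The 40 genes, the related lists and the marker lists were chosen with earlier results of these data known. Values in every sample are given for Grhl2 and, in each role, for the 3 called genes with the largest difference and any called against the direction of its role; related lists give up to 3 called genes, with others named as chosen later. Of the listed genes, Dlk1, Adgre1, Hbb-bs, Dcn and Lrat were not found in the table, and Pycr3 is in it as Pycrl. Gene positions are GENCODE M21 (GRCm38), matched by symbol. Promoter windows are RefSeq sequences of GRCm38.p6. Sequence stretches are printed for the C/EBP-ATF element only, and 1 promoter match is not reported here, which changes no count of genes.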

Additional observations from a re-analysis of the deposited data

Results flagged for a closer look

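Of 82 groups of 4 samples (both groups of the 40 genes and Grhl2), 4 had 1 sample far from the other three, about what chance gives at 1 in 20. In the pcDNA3 group replicate 2 was such a sample for 3 genes: Aars at 12.16 (next 12.01), Slc7a11 at 7.91 (next 7.62) and Cbs at 4.85 (next 4.98). In the GRHL2 group replicate 1 was low for Qars, at 11.86 (next 11.90). All 4 genes kept their direction without any 1 sample, and Aars, Slc7a11 and Cbs their calls.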

How the results depend on the processing

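The count of genes that fell was 13 as reported and 12 to 19 under equal scalings, no trend, the mean value minimum, the GC correction and replicates 3 and 4 alone. It was 23 with the replicate block, with or without the GC correction (which lost Psat1 and gained Wars, limma adjusted p = 0.0678 and 0.0305), and 7 with replicates 1 and 2 alone, and 8 to 14 without 1 sample. The count that rose was 3 as reported, 0 with replicates 1 and 2 alone and 1 to 3 without 1 sample. The median difference was -0.13, -0.16 with equal medians, -0.11 with equal upper quartiles, and -0.14 to -0.12 without 1 sample. Of the 16 called genes, 9 were called without any 1 sample (Aars, Cars, Eprs, Lars, Nars, Yars, Cbs, Slc7a11 and Slc3a2). The block, for samples paired by number, lost no call. Genes that changed sign were all uncalled: with replicates 1 and 2 alone Shmt2 was at 0.024 and Cth at -0.016; without 1 sample Cth ranged from -0.046 to 0.13 (below 0 without GRHL2 replicate 3 or pcDNA3 replicate 2), Slc7a1 from -0.090 to 0.024 (above 0 without the same samples) and Slc7a3 from -0.058 to 0.0066 (above 0 without GRHL2 replicate 2). The cause was not tested. Depth is unknown, and rlog shrinks low genes such as Aldh1l2 and Slc7a3.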
